A study of Mus musculus with 17 samples.

Results

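The proliferins are Prl2c2, Prl2c3 and Prl2c5, 3 of the 55450 genes in the bulk table, and were followed across cultures grown from the mammary tumors and metastases of MMTV-PyMT mice. These mice carry the polyoma middle T oncogene under a mammary promoter, and the cultures came from 10 female FVB/NJ animals, whose organs were taken at an age of 10 to 12 weeks. The 3 genes were chosen by name, with their levels in these libraries already known, so the levels below are a description and carry no test. Because the genes are near copies of each other, their sum is given beside each of them.

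Bulk RNA-seq covered 14 libraries in 7 groups of 2. The groups were the primary tumor of the mammary fat pad (MFP), with no CD44 class in its label, and CD44low and CD44high cells from 3 organs, the lymph node (LN), the bone marrow (BM) and the lung. All cells had been cultured for about a month, and the organ-derived cells were sorted as EpCAMhigh. Per the study's methods, the 2 libraries of a group were separate clonal isolates from different mice, so each group stands on 2 isolates. Single-cell libraries, 1 each among the samples used here, came from lung CD44low (lungL), lung CD44high (lungH) and LN CD44high (lymphH) cells. The study's methods state 2 replicates per single-cell sample, and the labels of lungL and lungH name replicate 1. Whether a single-cell library came from the same isolate as a bulk library is not given in the sources used here.

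Proliferins are secreted glycoproteins of the prolactin family, which in rodents has expanded into a large cluster of placental hormones. Trophoblast giant cells of the mouse placenta are their best known source, and cultured mouse fibroblasts make them when serum or growth factors are added. The protein binds the IGF2/mannose 6-phosphate receptor on endothelial cells and stimulates their migration, so that proliferin is known as an angiogenic factor. The AP-1 factors of the Jun and Fos families, and GATA2 and GATA3 in trophoblast, are known regulators of the proliferin promoter.

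In the mm10 annotation (GENCODE vM21) the 3 genes lie on chromosome 13. Prl2c3 spans chr13:12790816-12800079 on the minus strand, Prl2c2 spans chr13:12996125-13005383 on the minus strand, and Prl2c5 spans chr13:13182715-13191923 on the plus strand. A more distant member of the subfamily, Prl2c1, lies at chr13:27849342-27857788. The coding sequences of Prl2c3 and Prl2c2, each 675 bases with the stop codon, differed at 3 positions and were 99.56% identical. Prl2c5 was 92.84% identical to Prl2c3 over its coding sequence. The stretch below, coding bases 194 to 283 of Prl2c3, is shown because it holds 1 of those 3 positions. The capital in Prl2c3 and in Prl2c2 marks the base that differs between them, and the capitals in Prl2c5 mark its differences from Prl2c3.
Prl2c3: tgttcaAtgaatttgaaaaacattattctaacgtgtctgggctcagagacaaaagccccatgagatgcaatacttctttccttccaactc
Prl2c2: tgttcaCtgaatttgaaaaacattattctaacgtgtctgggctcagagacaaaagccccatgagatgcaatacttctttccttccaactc
Prl2c5: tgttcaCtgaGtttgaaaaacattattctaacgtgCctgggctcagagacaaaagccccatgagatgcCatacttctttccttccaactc

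Reads could therefore separate Prl2c5 from the others more often than Prl2c2 from Prl2c3. Of all 31-base words in the main transcript, 14% were particular to Prl2c3 within the Prl2c genes, 5.5% to Prl2c2 and 48.6% to Prl2c5. Over the last 300 bases, from which the single-cell tags come, 98.1% of the words of Prl2c3 were shared with Prl2c2. The last coding difference between them lies 471 bases before the end of the Prl2c3 transcript. The split between Prl2c2 and Prl2c3 is thus uncertain in every library, most of all in the single-cell libraries. The reference is that of C57BL/6J and the mice were FVB/NJ, so a strain difference at any of these positions would also move the split.

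Promoters are shown because the members were all highest in the same group. The 250 bases before the start of Prl2c3 (RefSeq window of GRCm38.p6, chr13:12800080-12800329, minus strand) and of Prl2c5 (chr13:13182466-13182715, plus strand) matched at 96.02%, with 10 differences. The capitals mark TATATAAG, which is present in both and in 0.935% of 32851 RefSeq promoter windows, searched on both strands.
Prl2c3: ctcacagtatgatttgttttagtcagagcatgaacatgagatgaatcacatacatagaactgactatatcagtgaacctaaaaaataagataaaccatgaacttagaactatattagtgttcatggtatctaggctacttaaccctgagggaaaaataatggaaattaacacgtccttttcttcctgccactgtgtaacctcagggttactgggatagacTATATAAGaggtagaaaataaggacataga
Prl2c5: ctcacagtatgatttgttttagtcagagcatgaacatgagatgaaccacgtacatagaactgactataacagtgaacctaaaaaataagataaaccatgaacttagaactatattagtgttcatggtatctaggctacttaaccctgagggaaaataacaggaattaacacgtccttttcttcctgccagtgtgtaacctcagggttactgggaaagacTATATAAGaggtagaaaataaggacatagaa
The AP-1 letters TGACTCA, or their reverse TGAGTCA, are in 4.463% of the windows and in neither of these. Only these exact letters within the 250 bases were searched for. A site further upstream, cut by the window edge or with other letters would be missed. The promoters may therefore still hold AP-1 sites.

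The primary tumor cells carried far more proliferin RNA than any organ-derived culture. Values are in TPM, a transcript level scaled to transcript length and to the same total in every library. Prl2c3 was at 18128.85 and 13372.12 TPM in the 2 MFP libraries, or 15750 ± 3364 (SD, n = 2), and ranked 2 and 4 among all genes. Prl2c2 was at 1718.87 and 1228.37 TPM in the same libraries, and Prl2c5 at 11.55 and 11.57 TPM. Together the members took 1.986% and 1.461% of all TPM in MFP. Prl2c5 was only 0.05816% and 0.07918% of their sum, and 29.1% of the 31-base words of Prl2c3 are shared with it. How far reads of Prl2c3 make up the Prl2c5 level was not tested. For all 3 genes, both MFP libraries lay above all 12 other libraries, as they did for 11.9% of the 15348 genes that reached 1 TPM in at least 2 libraries.

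**Figure D1:**
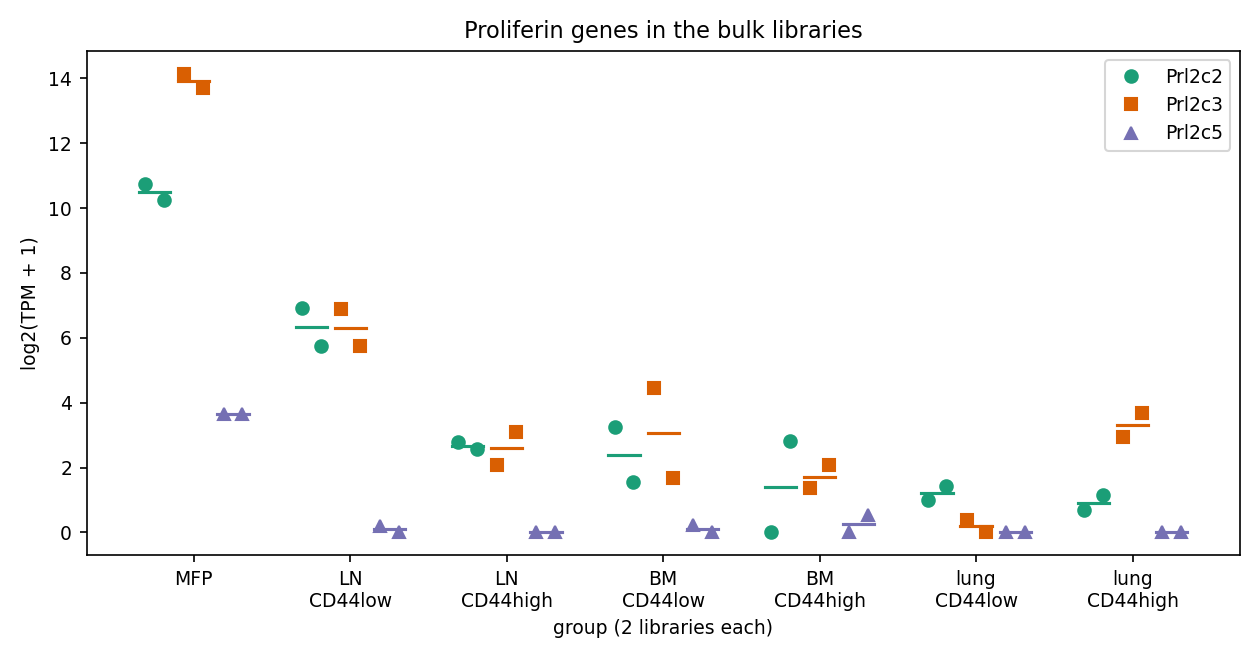
Level of each proliferin gene, as log2(TPM + 1), in the 2 libraries of each bulk group; points are libraries and short lines are group means. The 3 genes are highest in MFP, Prl2c2 and Prl2c3 come next in LN CD44low, and Prl2c5 is near 0 outside MFP.

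The LN CD44low cells came second. Prl2c3 was at 117.13 and 52.5 TPM there, and Prl2c2 at 119.55 and 53.24 TPM. Their sum with Prl2c5, 236.83 and 105.74 TPM, lay above that of every library outside MFP and LN CD44low, an order that 2.12% of the 15348 genes had. The mean sum of MFP, 17236 ± 3710 TPM (SD, n = 2), was 100.6 times that of LN CD44low, 171.3 ± 92.7 TPM (SD, n = 2). On the log2(TPM + 1) scale the sum was higher in MFP by 6.74 ± 0.88 (SD of the difference).

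The 5 remaining groups had sums between 1.3 and 29.58 TPM. The sum was 29.58 and 4.1 TPM in BM CD44low, 9.06 and 12.58 in LN CD44high, 7.32 and 12.94 in lung CD44high, and 1.56 and 9.71 in BM CD44high. Neighbours in this order overlapped, so their order is not set beyond the spread of the libraries. Lung CD44low was lowest, at 1.3 and 1.69 TPM, but BM CD44high reached down to 1.56 TPM and overlapped it. The differences of these groups from MFP ran from 10.41 ± 1.85 (BM CD44low) to 12.74 ± 0.35 (lung CD44low) on the log2(TPM + 1) scale. All of these differences use the same 2 MFP libraries. In bulk RNA, fewer cells with proliferin RNA and less of it per cell cannot be told apart.

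CD44 classes were ordered differently in lymph node and lung. Prl2c3 was at 117.13 and 52.5 TPM in LN CD44low and at 3.22 and 7.62 TPM in LN CD44high, without overlap. Of the 15348 genes, 26.6% had both LN CD44low libraries above both LN CD44high libraries and 10.2% the reverse, so such an order was common. In lung it was at 0.3 and 0 TPM in CD44low and at 6.71 and 11.72 TPM in CD44high, again without overlap but in the other direction. Both lung CD44high libraries lay above both lung CD44low libraries for 30.3% of the genes, and below them for 36.6%. In BM the classes overlapped, at 20.88 and 2.17 TPM in CD44low and 1.56 and 3.19 TPM in CD44high. Prl2c2 did not share the lung order: it was at 1 and 1.69 TPM in lung CD44low and at 0.61 and 1.22 TPM in lung CD44high, which overlap. The counting error of these low values cannot be computed from TPM. In the single-cell libraries described below, Prl2c3 had the reverse order in lung, at 19.38 counts per 10000 in lungL and 11.68 in lungH.

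The share of the 2 near-identical genes differed between groups. Prl2c3 was 10.55 and 10.89 times Prl2c2 in MFP, and 11 and 9.607 times in lung CD44high. In LN CD44low, at levels high enough for a ratio, they were nearly equal, at 0.9798 and 0.9861. In the other groups the ratio ran from 0 to 2.448, and it could not be formed for 1 BM CD44high library in which Prl2c2 was at 0. The 2 libraries of MFP, of lung CD44high and of LN CD44low each gave close ratios, while the part of read assignment in these shares was not tested.

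**Figure D2:**
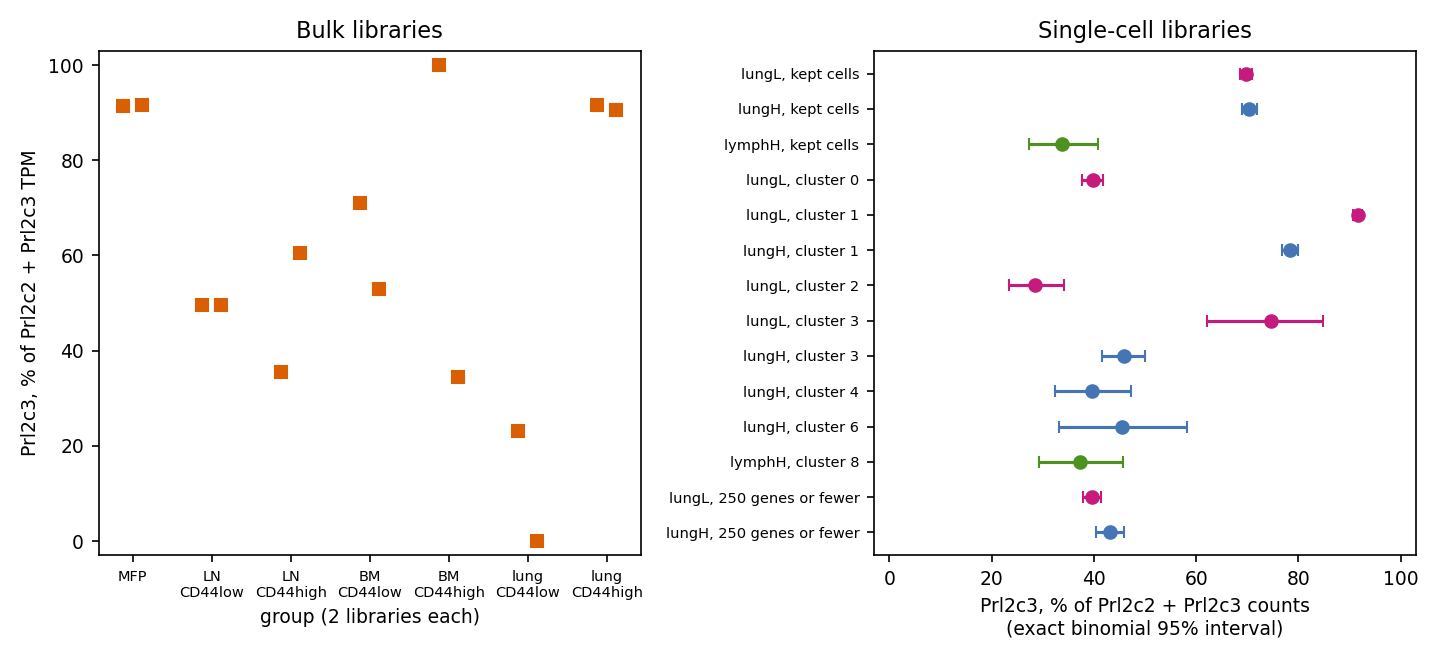
Prl2c3 as a percent of Prl2c2 plus Prl2c3, in TPM per bulk library (left) and in counts for single-cell libraries and clusters with at least 50 such counts, with exact binomial 95% intervals (right). Prl2c3 stands near the top of the scale in MFP, lung CD44high and the lungL cells of cluster 1 (91.58%), and near the middle in LN CD44low; 1 BM CD44high library is at 100% because Prl2c2 was at 0.

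Hardly any other gene of the family was on. Of 27 prolactin family genes listed, 26 were in the table, 11 were at 0 TPM in every library, and 7, the members included, reached 1 TPM in any. Prl2c1, the next nearest copy, was at 1.15 and 1.36 TPM in MFP and 0 in all 12 other libraries. The placental genes Prl2a1 and Prl7c1 were also highest in MFP, at 1.43 and 0.56 TPM and at 1.08 and 0.59 TPM. Prl7a1 had another order, with 1.07 and 1.69 TPM in lung CD44low and 0 in MFP. The remaining 8 genes did not exceed 0.15 TPM. No gene of the family outside the members exceeded 1.69 TPM in any library.

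Trophoblast markers were largely absent from the cells with the most proliferin RNA. Of 18 markers, 3 passed the filter of at least 1 TPM in at least 2 libraries, and 2 were above 1 TPM in each MFP library. The defining markers Hand1 and Tpbpa were at 0 in both MFP libraries. Gata3 was at 41.39 and 36.58 TPM in MFP and at 4.08 and 2.1 TPM in LN CD44low. It was highest, at 187.13 and 305.27 TPM, in lung CD44high, where the proliferin sum was 7.32 and 12.94 TPM. Gata2 was highest in lung CD44low, at 5.57 and 6.68 TPM, where the sum was lowest.

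Few genes had a pattern as steep. Among 15348 genes past the filter, 46, the 3 members included, had both MFP libraries at 10 TPM or more and over 10 times every other library. The highest of them outside the members included the tight junction gene Cldn7 and the mesothelin gene Msln, named after their values were seen. Across the 14 libraries, the genes closest to the summed members on the log2(TPM + 1) scale included Adgrf4 (Pearson's r = 0.97), Gpr155, Gm11714, Fam83b, Wipi2, Mtg1, Tmem171, Ddx10 and Acsbg1 (r = 0.95). Adgrf4, an adhesion G protein-coupled receptor gene, was at 14.22 and 13.26 TPM in MFP, 1.53 and 1.25 in LN CD44low, and at most 0.62 elsewhere. Wipi2, an autophagy gene, had 584.95 and 737.61 TPM in MFP against 42.75 to 122.41 elsewhere. These likenesses rest on the 2 MFP libraries and describe 14 libraries of 7 groups.

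The summed epithelial markers were, like the proliferins, highest in MFP, but the orders differed among the other groups. The summed level of 12 epithelial markers was 7856 to 8922 TPM in MFP, 2269 to 3433 TPM in LN CD44low, 4588 to 4902 TPM in LN CD44high, 2562 to 4836 TPM in the BM groups, 15.99 to 87.65 TPM in lung CD44high and 2.43 to 2.67 TPM in lung CD44low. LN CD44low, second in proliferin, thus had lower epithelial sums than LN CD44high, and lung CD44high, with proliferin sums that overlapped those of LN CD44high, had far lower ones. Fibroblast markers were lowest in MFP, at 61.78 to 94.64 TPM, and highest in lung CD44low, at 6551 to 7113 TPM. Epcam itself was at 836.53 and 725.37 TPM in MFP, at 941.14 and 820.07 TPM in LN CD44high, at 0.23 and 0.86 TPM in lung CD44high and at 0 in both lung CD44low libraries, although the sort was for EpCAMhigh cells. All 7 endothelial markers were near 0, with sums of at most 1.17 TPM in any library. The part of these markers in the proliferin levels was not tested.

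Genes of the proliferin pathway were read from a fit across all 15348 genes (limma on log2(TPM + 1), called at a log2 fold change over 2 in size and a Benjamini-Hochberg adjusted p under 0.05). Of all genes tested, 18.8% were called in lung CD44low against MFP (11.2% higher and 7.62% lower), 13.5% in lung CD44high against MFP (5.42% higher and 8.03% lower) and 11.3% in lung CD44high against lung CD44low (2.49% higher and 8.8% lower). Against the shared MFP libraries, 4.79% were called in LN CD44low (2.07% higher and 2.72% lower) and 6.12% in LN CD44high (2.44% higher and 3.68% lower). The share was 7.16% in BM CD44low (3.99% higher and 3.17% lower) and 7.67% in BM CD44high (3.64% higher and 4.03% lower). With median ratio scaling the balance of directions turned in 3 of these groups, to 360 higher and 328 lower in LN CD44low, 511 and 361 in LN CD44high and 730 and 395 in BM CD44high. With a pseudocount of 0.1 in place of 1 it turned in LN CD44low (736 higher and 694 lower) and in BM CD44high (1166 and 1029). The counts below are read against the unscaled shares.

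Receptor genes varied over a far narrower range than the ligands. Igf2r, the proliferin receptor, was at 13.99 and 12.86 TPM in MFP, above all other libraries, and at 1.88 to 12.59 TPM elsewhere, and its differences did not reach the fold required for a call. M6pr, which encodes the other mannose 6-phosphate receptor, was also highest in MFP, at 159.16 and 125.66 TPM, against 70.02 to 121.96 TPM elsewhere, and was not called. Prlr, the prolactin receptor, was at 0 in MFP and in all lung libraries, and reached 3.15 TPM in BM CD44low. Of the 12 receptor and JAK-STAT genes, 2 were higher in lung CD44low than in MFP (Ghr and Socs3) and none was lower, with a list median of 0.47 against 0 for all genes on the log2 scale. In lung CD44high, Ghr was higher and Socs2 lower. Ghr, the growth hormone receptor, was at 15.74 and 20.85 TPM in MFP, 84.11 and 169.69 in lung CD44low and 409.07 and 260.38 in lung CD44high. Socs3, a feedback inhibitor of cytokine signaling, was higher than in MFP in LN CD44low, LN CD44high, BM CD44low and BM CD44high as well, each the only gene of the list higher there. Ghr was lower in LN CD44high (fell by 2.21 on the log2 scale), a call that was lost with median ratio scaling.

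A list of 12 genes held AP-1 and related factors (the Fos and Jun families and Atf3) and the serum response genes Egr1, Srf, Myc and Ier2, and its directions were mixed. In lung CD44low against MFP 4 rose (Jund, Fosl2, Egr1 and Ier2) and 1 fell (Atf3), with a list median of 0.87 against 0. Jund rose most, from 3.56 and 5.24 TPM in MFP to 144.33 and 226.39 TPM, followed by Fosl2. The fall of Atf3 was lost without lung CD44low replicate 1 (-1.82 on the log2 scale). In lung CD44high, Fosl2 rose, while Fosl1 and Atf3 fell. Fosl1 was highest in MFP, at 91.43 and 70.73 TPM, and lowest in lung CD44high, at 2.34 and 2.45 TPM. In the LN and BM groups 1 to 4 of the list fell and 0 rose. The fallen genes were Fos in LN CD44low; Fos, Fosl1 and Myc in LN CD44high; Fosl1, Myc and Atf3 in BM CD44low; and these 3 with Fos in BM CD44high. The call of Fos in LN CD44low was lost without MFP replicate 2 (-2.29 on the log2 scale). With median ratio scaling, the calls of Fos were lost in LN CD44high and BM CD44high, and those of Atf3 in both BM groups and of Fosl1 in BM CD44low. Jun was not called in any group against MFP. Between the lung classes 4 were lower in CD44high, with Jund and Egr1 furthest, and the call of Jund was lost without lung CD44low replicate 2, at a similar fold (-5.16 against -5.48 on the log2 scale). The call of Ier2 was lost without lung CD44high replicate 2 (-1.72).

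Many angiogenic genes were higher in lung CD44low than in MFP. Of 15 tested genes for angiogenic ligands and inhibitors, 10 rose in lung CD44low against MFP and 0 fell, with a list median of 3.8 against 0. The call of Vegfc, 1 of the 10, was lost without lung CD44low replicate 2 (1.93 on the log2 scale) or MFP replicate 2 (1.35). The largest rises were in 2 inhibitors of angiogenesis, Serpinf1 (from 0 in both MFP libraries to 979.46 and 1006.65 TPM) and Timp3 (from 17.93 and 9.93 TPM to 2679.92 and 2824.49 TPM). Vegfd, a ligand of lymphatic growth, rose from 0 to 130.68 and 142.86 TPM. In lung CD44high 4 rose and 1 fell, led by Angpt1, the ligand of the TIE2 receptor, at 50.99 and 48.85 TPM against 0.03 and 0. The rise of Vegfc there was lost without MFP replicate 2 (1.48 on the log2 scale) or lung CD44high replicate 1. In LN and BM groups 3 or 4 of the list rose, including Serpinf1 and the placental growth factor gene Pgf in each. Vegfc fell in BM CD44low (-2.05 on the log2 scale) and BM CD44high (-2.30), and both calls were lost with median ratio scaling. Of the 4 rises in BM CD44low, those of Vegfb and Col18a1 were lost without BM CD44low replicate 2 or MFP replicate 2. Of the 4 in LN CD44high, those of Col18a1 and Timp3 were lost without MFP replicate 2. The rise of Col18a1 was also lost without MFP replicate 2 in LN CD44low (1.26 on the log2 scale) and BM CD44high (1.54), and without other single libraries of these groups. Fibroblast markers rose beside these genes, 12 of 12 tested in lung CD44low and 6 of 12 in lung CD44high, where Pdgfra and Pdgfrb were lost without lung CD44high replicate 1. In both groups 10 of 10 epithelial and 10 of 10 cycling markers fell. The cycling calls were less firm. In lung CD44low, Mki67 and Cdk1 were lost without any 1 of the lung CD44low or MFP libraries. Their folds then were -2.68 to -2.91 and -3.1 to -3.53 on the log2 scale (-2.79 and -3.32 with all libraries). In lung CD44high, Mki67 was lost in 12 settings, the replicate block among them, at -1.89 to -2.99. Top2a, Cenpf and Ccnb1 were lost there without lung CD44high replicate 1, at -2.95, -2.34 and -3.3. In LN CD44low, LN CD44high, BM CD44low and BM CD44high, 3, 4, 5 and 5 of 12 fibroblast markers rose, and 5, 3, 3 and 4 of 10 epithelial markers fell. Several of these calls were lost without 1 library or with median ratio scaling. The part of these markers in the rises was not tested.

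Single cells showed where the proliferin counts lay. Counts were summed over kept cells (over 250 genes and under 10% mitochondrial counts) and given per 10000 counts with exact Poisson 95% intervals, which cover counting error only. LungL had 27.86 per 10000 (27.17 to 28.57) from 6188 counts in 348 cells, lungH 16.63 (16.1 to 17.18) from 3676 counts in 1236 cells, and lymphH 0.3896 (0.3382 to 0.4466) from 206 counts in 2562 cells. The level of lungH was 42.68 times that of lymphH. With 1 library per group there is no replicate check, and none of these differences was tested. The column names of the 3 matrices are serial, none is shared, and the barcode sequences are not part of them, so shared cells could not be counted.

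Bulk and single-cell values stand on different scales, since TPM comes from whole transcripts and the single-cell counts from 3′ tags. Side by side, the mean bulk sum of lung CD44high was 0.9362 times that of LN CD44high, whereas the single-cell ratio of the same groups was 42.68. Lung CD44low had 0.1476 times the bulk sum of lung CD44high, whereas lungL had 1.675 times the single-cell level of lungH. The latter order rests on 38 lungL cells described below: without them lungL had 13.98 per 10000, below the 16.63 of lungH. That removal was chosen after the data were seen and is one-sided, since the lungH cells of the same cluster were kept. The share of cells with a count kept its order, at 64.19% in the other lungL cells and 39.81% in lungH. Median depths there were 2551 and 557 counts. The bulk sums of lung CD44high and LN CD44high overlapped, so their bulk order is not set.

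In lungL, Prl2c3 had 4303 counts and was rank 33 among 16631 genes detected, Prl2c2 had 1868 counts, and Prl2c5 had 17. In lungH, the counts were 2583, 1085 and 8. In lymphH, they were 69, 135 and 2. A proliferin count was found in 67.53% of lungL cells (62.33 to 72.42, exact binomial 95% interval, median depth 4011 counts), 39.81% of lungH cells (37.06 to 42.6, median depth 557) and 4.098% of lymphH cells (3.364 to 4.94, median depth 585). Depth differed, so cells were thinned to 500 counts, leaving out 34, 288 and 659 shallower cells. The shares were then 45.22% in lungL, 31.75% in lungH and 1.997% in lymphH, in the same order.

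Barcodes with 250 genes or fewer held proliferin counts at similar levels. They had 37.26 per 10000 in lungL, 15.19 in lungH and 0.2939 in lymphH. The lungL barcodes that were left out thus had a higher level than the kept cells, and in lungH both were close. A count was present in 43.6% of these barcodes in lungL (median depth 299), 26.56% in lungH (median depth 389) and 0.6818% in lymphH (median depth 311). The lymphH level there rests on 4 counts, and its kept cells, at 0.3896, were close to it. Free RNA can give counts in such barcodes, so in each library a level near these values cannot be told apart from it. No cell type known to lack the genes was available as a further reference.

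**Figure D3:**
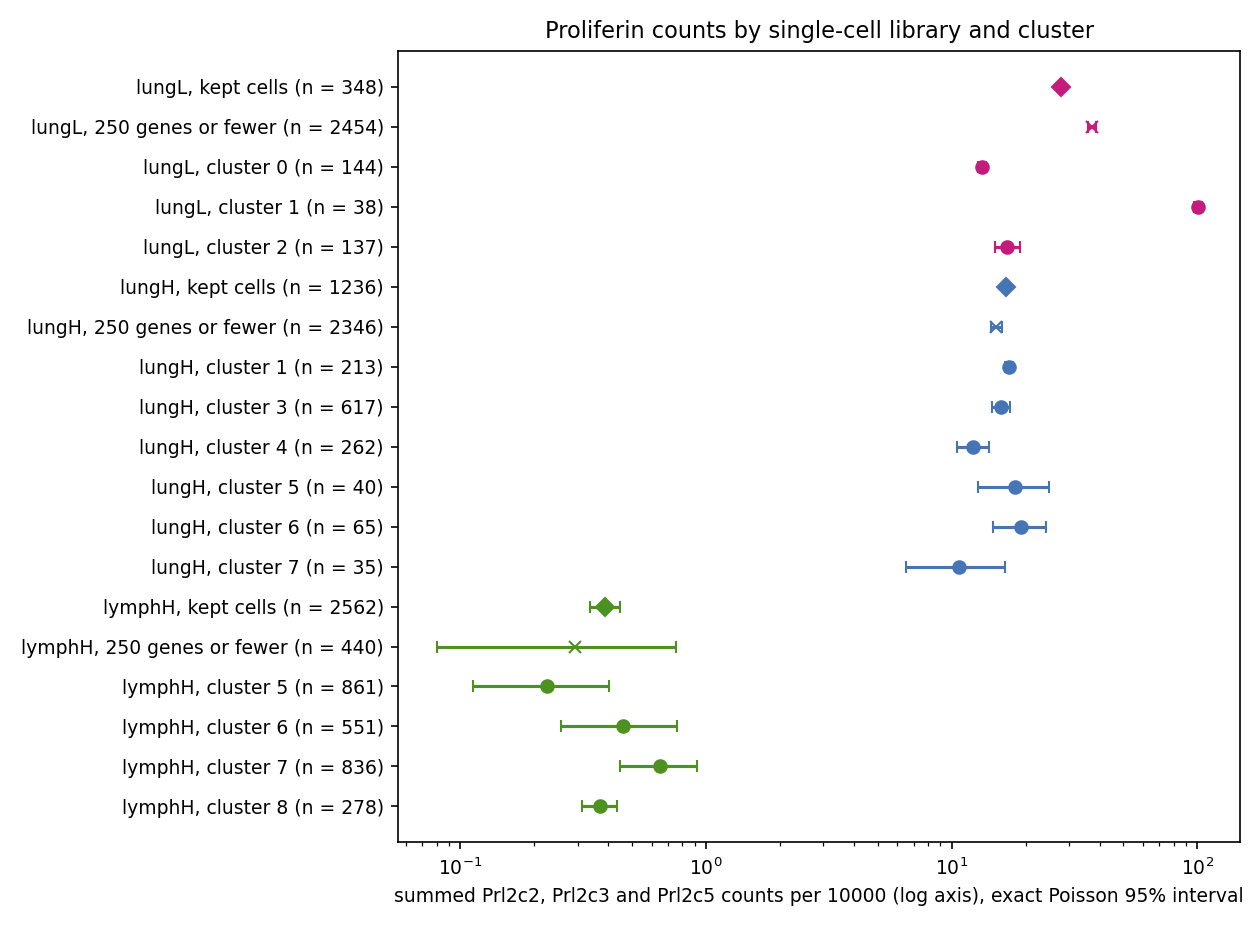
Summed Prl2c2, Prl2c3 and Prl2c5 counts per 10000 on a log axis, with exact Poisson 95% intervals, for kept cells (diamonds), barcodes with 250 genes or fewer (crosses) and clusters of at least 20 cells (circles) of each library. The lungL cells of cluster 1 stand highest at 100.5, and all lymphH values lie below 1.

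Clusters were built without any prolactin family gene, and 9 were found in the 4146 kept cells. In each, 84.86% or more of the cells came from 1 library, so a cluster may reflect its library. Cluster 1 was shared by 213 lungH and 38 lungL cells, and its leading genes included Aldh3a1, Ctla2a, Ptx3, Htra1, Wnt4 and Gata3. Clusters 0 and 2 were mostly lungL, led by Acta2, Grem1 and Bgn and by Col1a1, Col5a2 and Col1a2. The clusters stay unnamed.

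The 38 lungL cells of cluster 1 held the most proliferin RNA. Their level was 100.5 per 10000 (97.28 to 103.9), against 13.28 (12.74 to 13.85) in the 144 lungL cells of cluster 0 and 16.85 (14.96 to 18.92) in the 137 lungL cells of cluster 2. They were 10.92% of lungL cells and held 57.89% of the proliferin counts of the library. Of them 94.74% had a count, with a median of 81.03 per 10000 and a highest cell at 318.9. Among lungL clusters of at least 20 cells, only this one stood above the barcodes with few genes (37.26), and the 11 lungL cells of cluster 3 had 90.43 per 10000 (69.49 to 115.7) from 63 counts. Without the 38 cells of cluster 1, the other 310 lungL cells had 13.98 per 10000, a value chosen for display after the data were seen. Median depth was 9751 counts in the lungL cells of cluster 1 and 11549 in those of cluster 0, and 736 in those of cluster 2.

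LungH cells of the same cluster were far lower. Their 213 cells had 17.18 per 10000 (16.55 to 17.83), with a median of 3.608 and a highest cell at 299.2, at a median depth of 7146 counts. The other lungH clusters of at least 20 cells ran from 10.69 to 19.06 per 10000, which spans the level of the lungH barcodes with few genes. In lymphH, all 4 clusters of at least 20 cells lay between 0.2255 and 0.6508 per 10000. Of the lymphH cells in cluster 8, the deepest at a median of 15880 counts, 21.22% had a proliferin count.

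**Figure D4:**
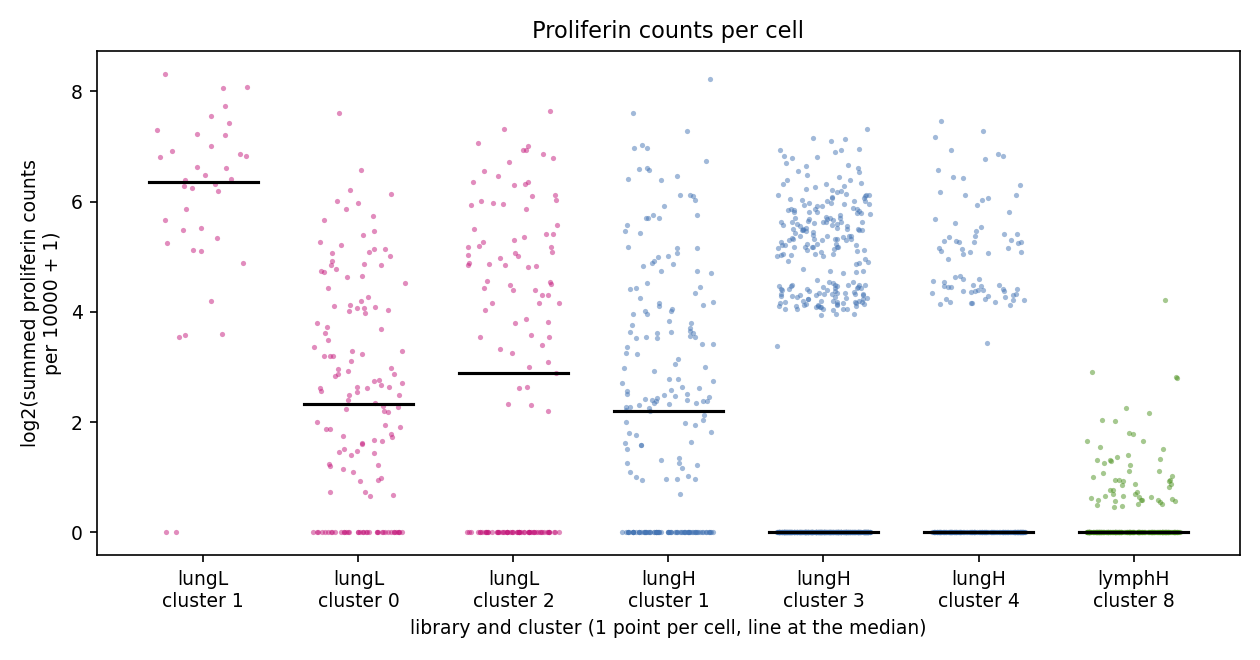
Summed proliferin counts per 10000 in each cell, as log2(value + 1), for 7 sets of cells by library and cluster; points are cells and lines are medians. The lungL cells of cluster 1 have a median of 81.03 per 10000, and in shallow clusters 3 and 4 a single count already sits near 4 on this axis.

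Counts were concentrated in few cells. The 10 highest cells held 37.33% of the proliferin counts in lungL, 34.74% in lungH and 32.52% in lymphH, with at most 503, 234 and 12 counts in 1 cell. The 35 highest of the 348 lungL cells held 71.25% of the counts. These are raw counts, which rise with the depth of a cell, and the share of all counts in the same cells was not computed. In lungH, the 213 cells of cluster 1 held 2821 of 3676 proliferin counts and also 1641839 of 2210623 counts of all genes. As assigned, the counts of a cell often fell to 1 gene and not its near copy. In lungL, 63 cells had counts of both Prl2c2 and Prl2c3, 106 of Prl2c2 alone and 65 of Prl2c3 alone. A cell with a single count can show only 1 of the genes, and the tags hardly separate them. Which gene a cell carried is therefore not shown by these numbers. Among the 89 lungL cells with at least 10 proliferin counts, 33 had 95% or more of them in Prl2c3, 19 had 95% or more in Prl2c2, and 37 were mixed. In lungH these numbers were 30, 4 and 20 of 54 cells.

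The split of Prl2c2 and Prl2c3 did not follow the level alone. In the lungL cells of cluster 1 the 3275 counts of Prl2c3 were 10.88 times the 301 of Prl2c2. Prl2c3 made up 91.58% of the pair there (90.62 to 92.47), 78.42% in lungH cells of cluster 1, 39.79% in lungL cells of cluster 0 and 28.52% in lungL cells of cluster 2. In barcodes with few genes it made up 39.6% in lungL and 43.13% in lungH. Since the tags of these genes hardly differ in sequence, how the counts were assigned to either gene was not tested, and the sum is the firmer value.

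Marker sums differed between these clusters. In the lungL cells of cluster 1, epithelial markers had 7.354 per 10000 (4 of 12 genes with a count), cycling markers 27.2, fibroblast markers 38.82, trophoblast markers 2.021 and endothelial markers 0.02807. In the lungL cells of cluster 0 the values were 0.4424, 4.818, 52.01, 0.1435 and 0.02989. Macrophage markers were at 0.3368 and 0.2929. The lungH cells of cluster 1 had cycling and fibroblast sums close to those of its lungL cells (28.21 and 39.32), a lower epithelial sum (4.391) and a higher trophoblast sum (5.445), with proliferin at 17.18 per 10000 against 100.5. Epcam had 0 counts in the 348 lungL cells, which by the limit of 3 counts allows a share of up to 0.8621% of cells with a count (exact binomial 95% bound 1.054%) and sets no limit on cells that express the gene, and Hand1 and Tpbpa had 0 counts in all 3 libraries. The part of these markers in the proliferin level was not tested.

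Across the 348 kept lungL cells, the genes closest to the proliferin sum were Areg (r = 0.35), Gm38226, Alyref, Pcna, Mrpl12, Mmp3, Pfn1, Trim47, Ppia and Mcm7 (r = 0.28), among 6099 genes with a count in at least 10% of cells. These weak values in sparse counts are given as a description. Areg, an EGF receptor ligand gene, was at 4.014 per 10000 in the lungL cells of cluster 1 and 0.09118 in the other lungL cells, and Mmp3, a matrix protease gene, at 5.614 and 0.8635.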

How the data were processed

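Bulk cDNA was made with a modified SMART-seq2 protocol. Reads were mapped by the authors with STAR (mm10), and the deposited TPM are RSEM estimates per gene of the GENCODE v21 annotation. Read depth per library is not given beyond a stated minimum, so counting error of low TPM could not be computed. Single-cell libraries (ddSeq, SureCell) were quantified with kallisto, and the counts deposited by the authors are whole numbers for each barcode, with no filter on cells. Kept cells held 2220759 counts in lungL, 2210623 in lungH and 5287425 in lymphH. The filter leaves more cells than the study clustered. Whether duplicate molecules were collapsed is not given in the sources used here.

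Symbols came from the single-cell row names for 35849 of 55450 genes and from a gene name table for the rest. The 15348 genes that reached 1 TPM in 2 or more libraries were fitted as 7 group means on log2(TPM + 1) with limma 3.58.1 (lmFit, eBayes with trend, R 4.3.3), after a test on simulated data. Members and gene lists were chosen with earlier results of these data known, and the members were not tested. The text names the members, other prolactin family genes reaching 1 TPM, called genes of the lists or the 2 largest rises and falls, and the 10 genes closest to the summed members in the bulk libraries and in lungL cells. A gene that this rule names is not reported here.

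Cells were clustered with scanpy 1.11.5 on 2000 variable genes, 20 principal components and 15 neighbours, with Leiden (igraph 0.11.9) at resolution 0.8. Scrublet marked 5 of 4146 cells as doublets, too few to show that it worked, and none was removed. Sequence identity used GENCODE vM21 transcripts, and promoter windows came from RefSeq (2 of the 3 members had one). Replicate numbers were not taken as pairs in the main fit, and whether equal numbers share a mouse is not given in the sources used here. The alternatives were another pseudocount, filters, scaling, a replicate block, each library left out, other cell filters, thinning and other cluster resolutions.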

Additional observations from a re-analysis of the deposited data

Results flagged for a closer look

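The bulk levels of Prl2c3 in the CD44 classes stood in opposite orders in lymph node and lung. On the log2(TPM + 1) scale the difference of CD44high minus CD44low was -3.72 in LN and 3.12 in lung, and in each organ both libraries of one class lay above both of the other, an order that 26.6% of all genes tested shared in LN and 30.3% in lung. In BM the classes overlapped, and Prl2c2, whose split from Prl2c3 is uncertain, overlapped in lung. The single-cell libraries, 1 per class, had the reverse order in lung, with Prl2c3 at 19.38 counts per 10000 in lungL and 11.68 in lungH. Of the 4303 lungL counts of Prl2c3, 3275 lay in the 38 cells of cluster 1. The share of genes with opposite orders in both organs together was not computed. The difference between the organs was not tested.

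Barcodes with 250 genes or fewer, which enter no comparison of kept cells, held proliferin counts at 37.26 per 10000 in lungL, 15.19 in lungH and 0.2939 in lymphH. Each is above the limit that 3 counts give in that library.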

How the results depend on the processing

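The order of the summed proliferin TPM, highest in MFP and next in LN CD44low, kept its direction under every bulk alternative run. Against MFP, the log2 difference of LN CD44high became 9.99 with median ratio scaling (10.51 before), and that of lung CD44low became 13.39 with a pseudocount of 0.1 (12.74 before). Leaving out 1 library at a time gave differences from MFP of 6.16 to 7.32 for LN CD44low, 10.29 to 10.73 for LN CD44high, 9.12 to 11.71 for BM CD44low, 10.64 to 12.7 for BM CD44high, 12.52 to 12.96 for lung CD44low and 10.26 to 11 for lung CD44high. In single cells, all barcodes gave 30.32 per 10000 in lungL and 16.09 in lungH. The mean of per-cell values gave 15.47 in lungH. Thinning to 500 counts gave 14.98 in lungH and 0.494 in lymphH. The lungL level was 13.98 without its cells of cluster 1, an alternative added after the data were seen. At resolution 0.4, the lungL cells matched to cluster 2 merged with those of cluster 0, at 13.54. At resolution 1.2, the 38 lungL cells of cluster 1 formed a cluster with 3 cells of other libraries and had 100.5 per 10000, so no value was taken for the match to cluster 1.

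With a pseudocount of 0.1, 3286 genes were called in lung CD44high against MFP (2065 before), 2666 between the lung classes (1732 before) and 2885 in any LN or BM group (1552 before), with 1430 in LN CD44low (735 before), 1876 in LN CD44high (940 before), 2055 in BM CD44low (1099 before) and 2195 in BM CD44high (1177 before), and the cause was not tested. Leaving out 1 library gave 2392 to 2921 calls in lung CD44low, 1800 to 2157 in lung CD44high, 1147 to 1807 between the lung classes, lowest without lung CD44low replicate 2, and 1296 to 2309 in the LN and BM groups. Median ratio scaling moved the median of all genes from -0.301 to 0.02 in LN CD44high and from -0.336 to 0.037 in BM CD44high, and the share of higher calls from 39.9% to 58.6% and from 47.4% to 64.9%. With the replicate block, lung CD44low had 2851 calls and lung CD44high 2055. Replicate 1 deviations of 21 pairs of groups correlated between -0.194 and 0.168, 3 of them over 0.1. Low correlations over all genes cannot exclude a shared mouse, so whether equal numbers pair the samples is not known.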
